A study of Mus musculus with 2 samples.

Results

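Of the 36980 gene symbols with a listed transcript, 91 were zinc finger genes numbered Zfp800 to Zfp999. They were taken by their mouse symbol alone, Zfp followed by a number in that range and nothing else, and 217 listed transcripts belonged to them. RNA came from IL-7 cultures of pro-B cells, B cell precursors sorted from mouse bone marrow. The C/C culture had undeleted Setdb1 alleles, the Δ/Δ culture had the gene deleted, and both carried a bcl2 transgene and were taken on day 4 at 5 ng/µl IL-7. Sex, age and strain are not in the labels, which name neither the deleting enzyme nor the deleted exons. With a single library per genotype, differences between the libraries lack replicates and carry no p-value.

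Most of these genes encode C2H2 zinc finger proteins, which read DNA through a row of fingers. Those that also carry a KRAB box bind the co-repressor TRIM28 (KAP1), which brings in SETDB1 to methylate histone H3 at lysine 9, and in mouse cells this silences many endogenous retroviruses. The family has grown by tandem duplication, and several of its clusters, among them clusters on mouse chromosomes 2, 4 and 13, are largely rodent-specific. High Zfp numbers were often given to such late additions. Some members have no KRAB box and belong to other families.

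Values are RPKM, reads relative to transcript length in kilobases and to library depth, and the listed transcript of highest mean RPKM stands for the gene. Recovered depths were 170.6 M reads (M, mega) in the C/C library, and in the Δ/Δ library 193.2 M. A gene is called measured when either library gave it 1 RPKM or more. It is called higher or lower when log2((Δ/Δ + 0.5) / (C/C + 0.5)) was at least 1 or at most -1, a scale that understates changes of low genes. Fold values are plain ratios of RPKM, and their 95% intervals cover counting error only. Over its whole transcript Setdb1 itself had 17.0 RPKM for C/C against 12.6 RPKM for Δ/Δ, a log2 ratio of -0.41, so this value does not show how complete the deletion was.

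Facts of the 2 libraries bear on every difference below. Xist went from 0.0940 RPKM in C/C to 23.7 RPKM in Δ/Δ, while the Y-linked Ddx3y went from 10.2 to 0.00900 RPKM, Kdm5d from 5.37 to 0.0170 RPKM, and Uty (6.24 RPKM in C/C) and Eif2s3y (22.3 RPKM in C/C) were listed at 0 in Δ/Δ, so genotype and sex of the animals cannot be told apart. Of the 91 members, 0 lie on the X or Y chromosome. All 13 pro-B markers were measured in these cells, with 1 higher and 4 lower, and their summed level was 5095 RPKM for C/C against 4282 RPKM for Δ/Δ. Of 14 myeloid markers 11 were measured and 8 of these were higher, with sums of 132 and 372 RPKM, and Elane and Mpo were listed at 0 in C/C. Of 9 erythroid and platelet markers 5 were higher (sums 7.55 and 73.2 RPKM), and of 8 dendritic markers 5 were higher (sums 335 and 337 RPKM). Of 8 T and NK cell markers 2 were higher, with sums of 24.96 and 59.9 RPKM, and Ncr1 was listed at 0 in both libraries. Of 6 mast cell and stromal markers 2 were higher, with sums of 0.801 and 5.04 RPKM. In such bulk RNA, fewer cells of a type and less RNA per cell cannot be told apart, and the part of these other cells in the zinc finger values was not tested.

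Among the 54 measured members, 14 were higher and 3 were lower in Δ/Δ. Over all 12556 measured genes the same rule called 6.28% higher and 6.66% lower, and over the measured protein-coding genes 5.53% and 4.94%. By any amount 36 of the 54 were above C/C, against 42.2% of all measured genes. The median log2 ratio was 0.28 for measured members and -0.09 for all measured genes. Of the 54, 7 reached 1 RPKM in Δ/Δ alone, so the filter favoured genes that are high there. Among the 47 members with 1 RPKM or more in both libraries, 10 were higher and 3 lower, against 3.97% and 4.34% of all such genes. Without any filter 61 of the 91 members had more RPKM in Δ/Δ, 26 had less and 4 were listed at 0 in both. By read density, a ratio of 2 or more was found in 30 of the 76 members with 20 or more reads, and an equally large fall in 5, against 11.4% and 12% of all genes with as many reads. The 6 members of highest level were Zfp961, Zfp821, Zfp800, Zfp869, Zfp871 and Zfp954. Values were mostly low, and the median over the 91 was 1.14 RPKM for C/C and 1.66 RPKM for Δ/Δ.

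**Figure D1:**
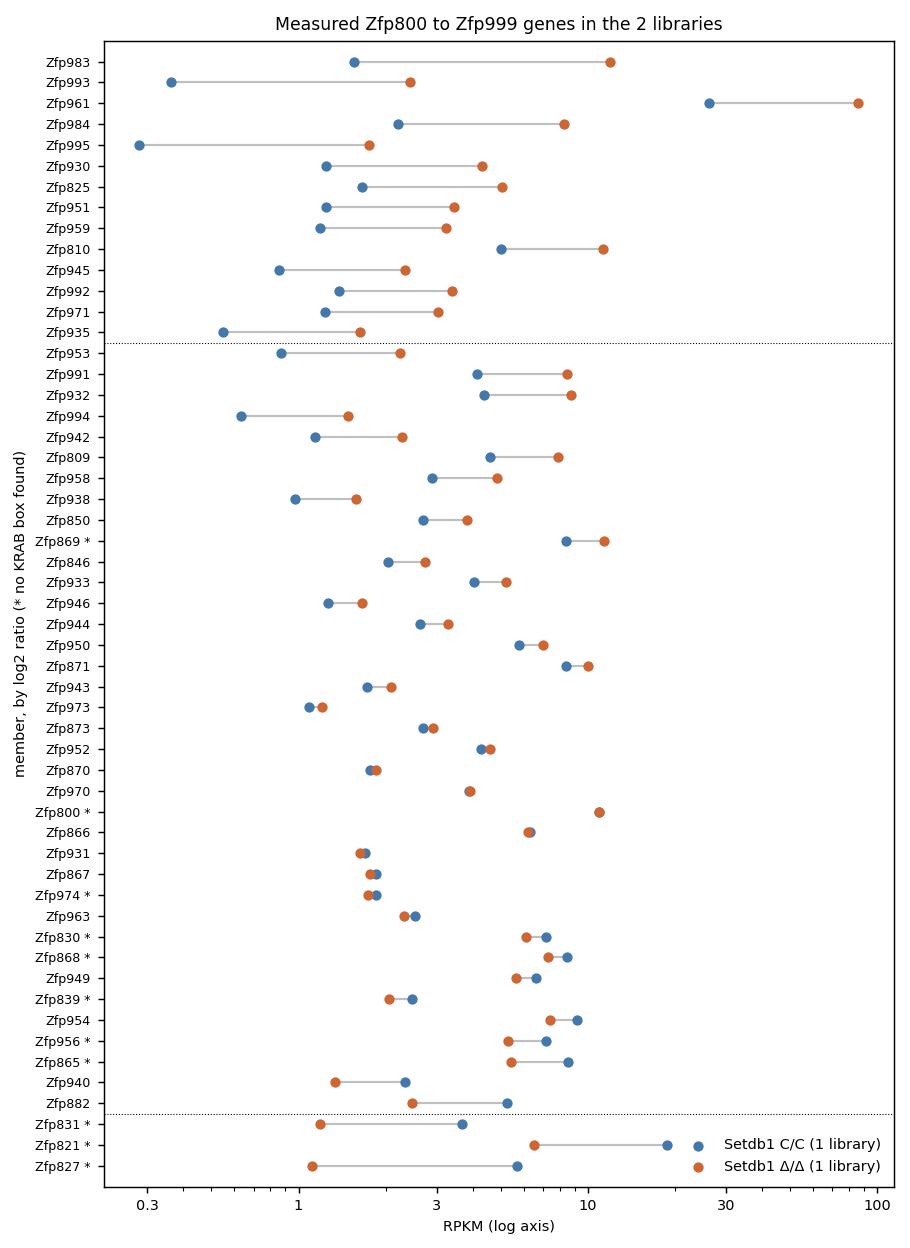
RPKM of the 54 measured members in the C/C (blue) and Δ/Δ (orange) library on a log axis, ordered by log2 ratio. The dotted lines set apart the 14 genes called higher at the top and the 3 called lower at the bottom, and an asterisk marks members in which no KRAB box was found.

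Among measured members Zfp983 had the largest log2 ratio. Its level was 1.555 RPKM for C/C against 11.96 RPKM for Δ/Δ, from 367 and 3197 reads. The ratio was 7.69 (interval 6.58 to 8.98) and the log2 ratio 2.60. Members under the filter with few reads in C/C had larger plain ratios, up to 15.4 in Zfp987. Zfp983 is a gene of 10 fingers with a KRAB box on chromosome 17 (GRCm38, 21650624 to 21664966, plus strand), listed with 1 transcript (ENSMUST00000039726). Of the windows of 101 bases, the read length, in this transcript, 0.62% also stand in a transcript of another gene (copies outside annotated transcripts were not searched). Zfp983 was the only measured member past a 4-fold rule on the log2 scale with 0.5 RPKM added. Of all measured genes 1.75% were higher by that rule.

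Zfp983 stands in a cluster on chromosome 17 (21008903 to 23599487) of 23 genes named Zfp with a number, 11 of them members, all with a KRAB box. All 11 had more RPKM in Δ/Δ. Of the 8 measured, 3 were higher and 0 lower, and over the 11 the log2 ratio ran from 0.22 to 2.60 with a median of 0.81. Zfp995, of 9 fingers, went from 0.282 to 1.75 RPKM, a ratio of 6.22 (interval 4.49 to 8.82). Zfp945, which has 18 fingers, went from 0.855 to 2.33 RPKM, a ratio of 2.72 (interval 2.44 to 3.05), although only 2 of its 4 listed transcripts passed the rule. Zfp948 (0.265 to 0.983 RPKM), Zfp947 (0.290 to 0.971 RPKM) and Zfp820 (0.122 to 0.588 RPKM) were under the filter, with ratios of 3.71, 3.35 and 4.82. The other members here were within the rule. Zfp994 measured 0.634 and 1.48 RPKM, a ratio of 2.34 (interval 2.02 to 2.70), and Zfp942 1.14 and 2.28 RPKM, a ratio of 1.99. Zfp944 measured 2.64 and 3.28 RPKM, Zfp943 1.73 and 2.09 RPKM, and Zfp946 1.26 and 1.66 RPKM, with ratios of 1.25, 1.21 and 1.31. Among the other measured zinc finger genes of this interval 3 of 12 were higher and 0 lower (median 0.73). They were Zfp52 (1.47 to 8.64 RPKM) and Zfp53 (1.91 to 5.44 RPKM), which lie near Zfp983, and Gm10226 (0.207 to 1.075 RPKM), named here after its value was seen. No other measured protein-coding gene lies in the interval.

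**Figure D2:**
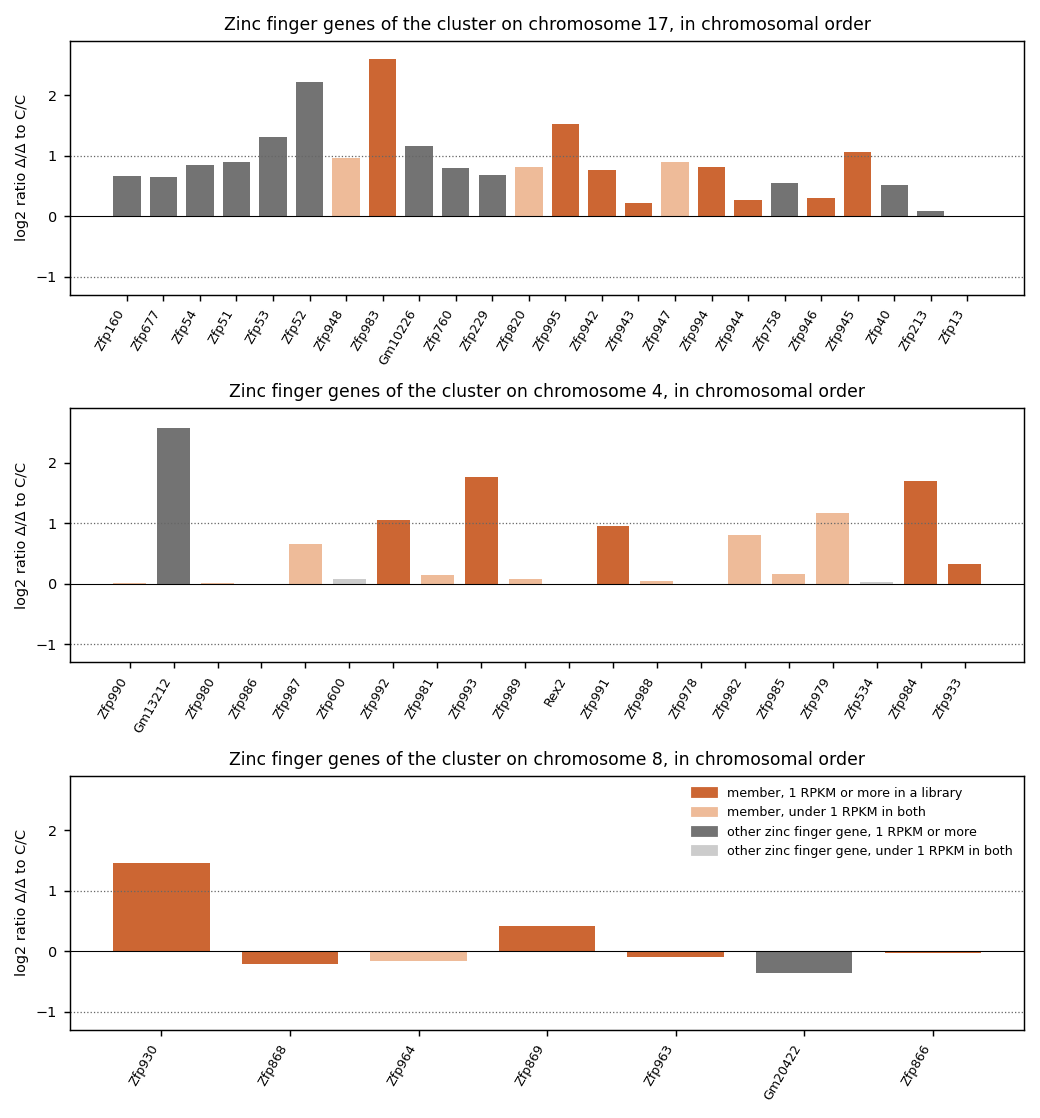
Log2 ratio of Δ/Δ to C/C for the zinc finger genes of 3 clusters in chromosomal order; orange bars are members, grey bars other zinc finger genes, pale bars genes under 1 RPKM in both libraries, and dotted lines the size rule. On chromosome 17 all 11 members stand above 0, and in the first cluster on chromosome 8 Zfp930 alone passes the rule. On chromosome 4 most bars are near 0 beside a few high ones, on a scale with 0.5 RPKM added that understates changes of low genes.

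The cluster on chromosome 4 (145510759 to 147848366) held 16 members, all with a KRAB box. Most had low values in C/C, where their median was 0.0115 RPKM. In Δ/Δ the median was 0.191 RPKM, and 14 of the 16 had more RPKM there. Of the 5 measured, 3 were higher and 0 lower. By read density 9 of the 10 members with 20 or more reads had a ratio of 2 or more, against 11.4% of all genes with as many reads. Zfp984 went from 2.21 to 8.25 RPKM, a ratio of 3.73 (interval 3.39 to 4.12). Zfp993 went from 0.363 to 2.42 RPKM, a ratio of 6.67 with a wide interval of 3.61 to 13.3 from 24 and 181 reads. Zfp992 went from 1.38 to 3.41 RPKM, a ratio of 2.47 (interval 2.24 to 2.73). Zfp991 (4.13 and 8.49 RPKM) was close to the rule at 0.96, and its transcript of 2813 bases was past it at 1.16. Zfp979, listed at 0 in C/C, reached 0.622 RPKM with the deletion. Against a floor of 3 reads in C/C the ratio would be 20.3. The counting interval of the ratio, with 2 reads as 1 fragment, starts lower, at 7.71. Zfp987 (0.0210 to 0.324 RPKM) and Zfp982 (0.0800 to 0.516 RPKM) also had few reads in C/C, 10 and 17. At the bottom of the range Zfp986, Zfp990, Zfp980 and Zfp978 had at most 0.00600 RPKM in either library. Copies in this cluster are close to each other. In Zfp993, Zfp992 and Zfp984 the share of windows also found in another gene's transcript was 75.6%, 28.4% and 30.8%. In Zfp979 and Zfp987 it was 58.9% and 77.5%. The split of reads among such copies is uncertain, and reads of theirs may be counted elsewhere or left out.

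Clusters elsewhere gave mixed values. On chromosome 8, Zfp930 (12 fingers) went from 1.25 to 4.298 RPKM, a ratio of 3.44 (interval 2.86 to 4.17) with 0% of windows shared. The other 5 members of its cluster (69209038 to 69791178) had log2 ratios from -0.21 to 0.41, with Zfp869 at 8.40 and 11.3 RPKM, Zfp868 at 8.49 and 7.26 RPKM, Zfp866 at 6.33 and 6.19 RPKM and Zfp963 at 2.52 and 2.31 RPKM. Of the transcript that stands for Zfp963, 78.3% of bases lie in exons of the gene model Gm20422, and for Zfp866 13.0%. Their values are thus not fully separate from that gene. Zfp964 was under the filter in both libraries. Zfp930 was past the rule and the 4 other measured members were within it. Of 2 other measured protein-coding genes in the interval, D130040H23Rik, named after its value was seen and lying next to Zfp930, was also past it, at 0.207 and 1.33 RPKM.

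Zfp961, in a second cluster on chromosome 8 (71882019 to 71993792), was the most abundant member. Its level was 26.2 RPKM for C/C against 86.2 RPKM for Δ/Δ, and the ratio was 3.29 (interval 3.14 to 3.45). The transcript behind these values is a processed transcript of which 17.8% of bases lie over exons of Cyp4f18 on the opposite strand. The library kit does not mark strand, and Cyp4f18, a cytochrome P450 gene, itself went from 62.6 to 203 RPKM. Of the 11 listed transcripts of Zfp961, the other 10 have no such overlap, and the longest, protein-coding and of 2713 bases, measured 11.7 and 36.7 RPKM, a log2 ratio of 1.61. All 11 passed the rule, from 1.24 to 1.70. Its neighbour Zfp882 went the other way, at 5.25 and 2.48 RPKM (log2 ratio -0.95), though its transcript of 3152 bases measured 2.002 and 1.49 RPKM. The non-member Zfp709 beside them went from 2.04 to 6.74 RPKM.

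Zfp809 and Zfp932, known for acting on retroviruses, were within the rule by the transcripts that stand for them. Zfp809, which binds the primer binding site of murine leukaemia viruses and recruits TRIM28 there, had 4.61 RPKM for C/C against 7.88 RPKM for Δ/Δ (log2 ratio 0.71). Its neighbour on chromosome 9, Zfp810, passed the rule, at 5.03 and 11.2 RPKM (ratio 2.24, interval 2.10 to 2.38), and both had 0% of windows shared. The third member of that cluster, Zfp872, measured 0.008 and 0.096 RPKM. Zfp932, a repressor of endogenous retroviruses on chromosome 5, measured 4.38 and 8.72 RPKM, a log2 ratio of 0.92, and 37.9% of its windows also stand in its paralogue Gm15446. Its longest transcript was past the rule at 1.14.

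The 12 members on chromosome 2 and the 12 on chromosome 7 were mostly under the filter, with 5 measured on each. On chromosome 2, 1 was higher and 1, Zfp831, was lower (3.66 to 1.19 RPKM). Zfp971 went from 1.24 to 3.04 RPKM (ratio 2.46, interval 2.03 to 2.99), with its other listed transcript within the rule at 0.56. Beside it Zfp970 measured 3.88 and 3.92 RPKM, Zfp931 1.70 and 1.63 RPKM and Zfp972 0.794 and 0.943 RPKM. The 4 members of the cluster at 175372436 to 175931100 stayed at or below 0.245 RPKM in both libraries. Of these, Zfp965 and Zfp969 were listed at 0 in both and shared 100% of their windows with other genes, so reads of theirs may be counted elsewhere or left out. On chromosome 7, 0 of 5 measured members passed the rule. Zfp850 (2.70 and 3.82 RPKM) was the most raised and Zfp940 (2.34 and 1.34 RPKM) the most lowered, and the 5 members of the cluster at 42473386 to 43618285 were all under the filter.

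Of the 24 members outside clusters 16 were measured. Against 6.28% and 6.66% of all measured genes, 4 of the 16 were higher and 3 lower. The higher ones all carry a KRAB box. Clusters count only genes named Zfp with a number, so members outside them can still have zinc finger genes nearby. Zfp808, Zfp934 and Zfp935, all counted as outside, lie on chromosome 13 between 62129886 and 62571199. Zfp825 on chromosome 13 went from 1.65 to 5.06 RPKM, a ratio of 3.06 (interval 2.48 to 3.80). Zfp951 on chromosome 5 went from 1.25 to 3.45 RPKM, a ratio of 2.77 (interval 2.29 to 3.37). Zfp959 on chromosome 17 went from 1.19 to 3.24 RPKM, a ratio of 2.72 (interval 2.33 to 3.21). Zfp935 on chromosome 13 went from 0.546 to 1.63 RPKM, but the pattern found 0 fingers in its reading frame and 98.5% of its transcript lies in exons of the gene model Gm49359, so the 2 cannot be separated. Zfp953, the single member of the large chromosome 13 cluster at 66669928 to 67827002, fell just short of the rule, with 0.872 and 2.235 RPKM (log2 ratio 0.995).

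The 3 lower members have no KRAB box. Zfp827, whose human counterpart brings the NuRD chromatin remodelling complex to telomeres, had 5.69 RPKM for C/C against 1.11 RPKM for Δ/Δ. It was 5.12-fold lower, with an interval of the ratio of 0.177 to 0.216. Each of its 7 listed transcripts passed the rule, from -1.56 to -1.94. Zfp821, a gene with 2 fingers by the pattern, went from 18.8 to 6.52 RPKM, 2.88-fold lower (ratio interval 0.325 to 0.370). Zfp831 on chromosome 2, also with 2 fingers and with the longest transcript of the 3, was 3.08-fold lower (ratio interval 0.303 to 0.348). In these genes at most 0.94% of windows were shared with another gene, and each had at least 978 reads in either library.

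All 14 measured members called higher carry a KRAB box and the 3 called lower lack it. A pattern of the box was found in the longest reading frame of 75 of the 90 members that have one, and Zfp939 is annotated as a pseudogene. Of 43 measured members with the box, 14 were higher and 0 lower, with a median log2 ratio of 0.49. Of 11 measured members without it, 0 were higher and 3 lower (median -0.21). Without a filter 57 of the 75 with the box had more RPKM in Δ/Δ and 14 had less, while 3 of the 15 without it had more and 12 had less. Zfp882 is an exception in direction among those with the box, and with a pseudocount of 0.1 RPKM it was called lower, at -1.05. By read density it and Zfp879 (0.166 and 0.081 RPKM) were the 2 lower members with the box, and Zfp934 (0.207 and 0.578 RPKM, a ratio of 2.79) was the 1 higher member without it. Levels differed between the classes too, with a median in C/C of 2.03 RPKM for measured members with the box and 7.16 RPKM for those without, and the part of the level was not tested. No match says only that the pattern is not in that reading frame, and 6 of the members without one, Zfp827, Zfp865, Zfp868, Zfp869, Zfp934 and Zfp974, have between 9 and 21 fingers.

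**Figure D3:**
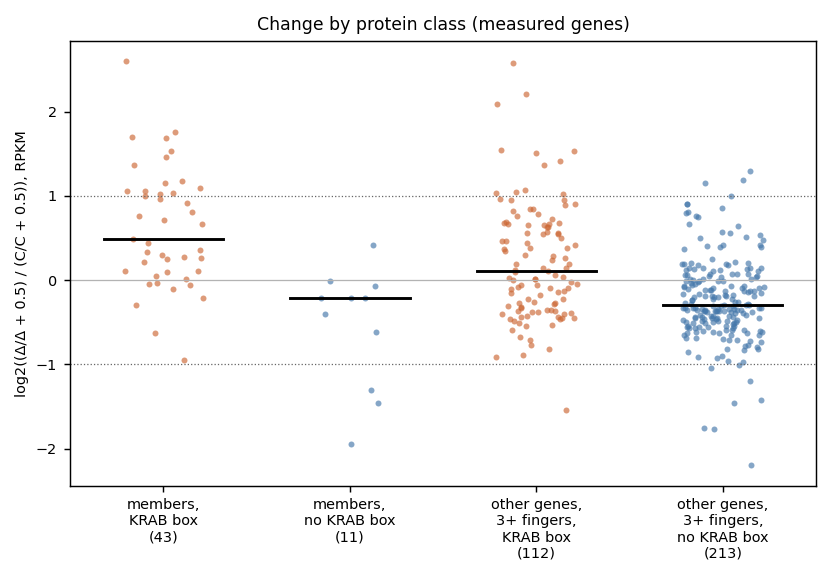
Log2 ratio of Δ/Δ to C/C for measured members and for other measured genes with 3 or more fingers, by whether a KRAB box was found; points are genes, black lines medians, dotted lines the size rule, and numbers in brackets the genes. Medians are 0.49 and -0.21 for members with and without the box, and 0.10 and -0.30 for the other genes.

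Medians of other zinc finger genes stood in the same order. Among genes that are not members, have 3 or more fingers and carry the box, 12 of 112 measured were higher and 1 lower (median 0.10). Among those without the box 3 of 213 were higher and 8 lower (median -0.30). Zfp1 to Zfp799 with the box had 6 higher and 0 lower of 75 (median 0.02), and those without it 1 higher and 3 lower of 133 (median -0.30). The shares called higher were 32.6% for members with the box, 10.7% for the other genes with it and 8% for Zfp1 to Zfp799 with it. Over all measured genes it was 6.28%. The groups of other genes and of Zfp1 to Zfp799 overlap and are not separate comparisons. With 1 library per genotype the difference between these shares was not tested. Within the members, Zfp900 to Zfp999 had 12 higher and 0 lower of 34 measured, and Zfp800 to Zfp899 had 2 higher and 3 lower of 20. Most of the 11 measured members without the box are numbered Zfp800 to Zfp899, and the part of the box in this split was not tested. At the lower limit of the number range, Zfp800 measured 10.97 and 10.9 RPKM and Zfp799, just outside it, 1.61 and 1.46 RPKM.

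Members were also set out by position and number of fingers. Counting only genes named Zfp with a number, 19 clusters held 67 members, of which 10 of 38 measured were higher and 0 lower. Outside them 4 of 16 were higher and 3 lower. Among members with the box, 10 of 33 in clusters and 4 of 10 outside were higher. The median number of fingers was 10 in the higher members, 11 in those within the rule and 2 in the 3 lower ones. Calls were set out by shared sequence too. Of the 43 measured members with under 10% of windows shared, 9 were higher and 3 lower (median log2 ratio 0.27). Of the 11 with more, 5 were higher and 0 lower (median 0.92), and the part of shared sequence was not tested. Such windows were searched in annotated transcripts only, so copies elsewhere in the genome are not counted.

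Listed transcripts of a gene overlap and share reads, so they are no separate measurements, but they show how far the choice of transcript matters. Of 31 measured members with more than 1 listed transcript, 17 had all log2 ratios above 0, 8 had all below 0 and 6 had both signs. Zfp946 ranged from 0.29 in the processed transcript that stands for it to 1.04 in a coding transcript of 1572 bases. Zfp942 ranged from 0.21 to 1.19 and Zfp943 from 0.22 to 0.82. In all 3 genes a coding transcript gave the upper end.

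**Figure D4:**
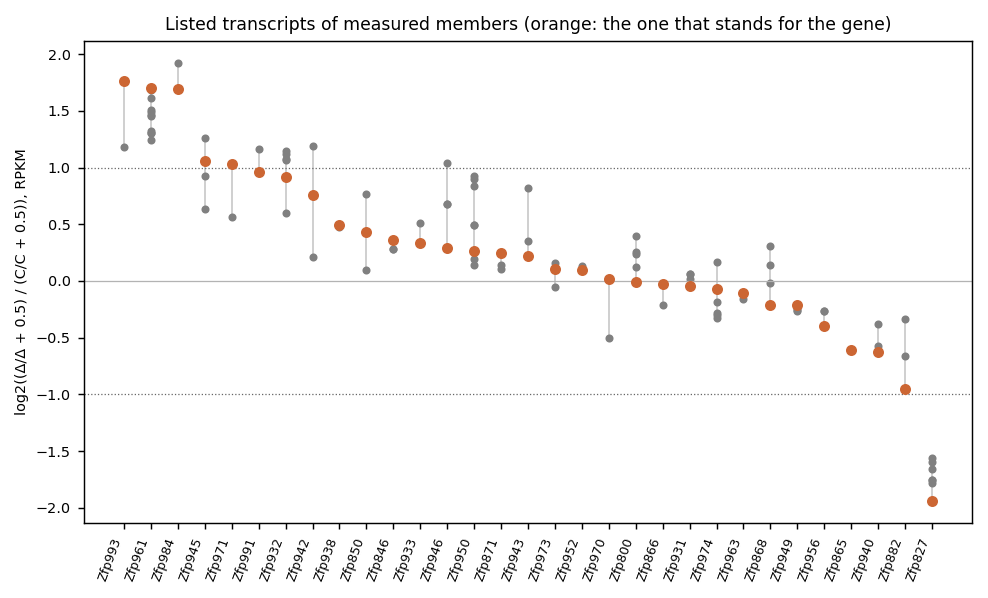
Log2 ratio of Δ/Δ to C/C for each listed transcript of the 31 measured members with more than 1; orange points mark the transcript that stands for the gene and dotted lines the size rule. All points of Zfp961 lie above 1 and all points of Zfp827 below -1, while those of Zfp945, Zfp942 and Zfp946 straddle the upper line.

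The sequence around the start site was described as well, for only 2 of the lower members. RefSeq promoter windows (GRCm38.p6, 250 bases before to 50 after the start) were found within 1000 bases of an annotated start for 74 members. The 250 bases before the start are shown for 2 of the higher members, Zfp983 and Zfp961, and for the lower members Zfp821 and Zfp827, 5′ to 3′ on the gene's strand, with each CpG in capitals. These are chr17:21650361-21650610, chr8:71950816-71951065, chr8:109705296-109705545 and chr8:79028187-79028436, all on the plus strand.
Zfp983: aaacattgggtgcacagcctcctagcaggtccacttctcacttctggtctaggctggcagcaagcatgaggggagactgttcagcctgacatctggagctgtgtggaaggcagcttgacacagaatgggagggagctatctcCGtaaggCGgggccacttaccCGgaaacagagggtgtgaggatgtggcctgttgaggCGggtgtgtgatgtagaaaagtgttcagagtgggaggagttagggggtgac
Zfp961: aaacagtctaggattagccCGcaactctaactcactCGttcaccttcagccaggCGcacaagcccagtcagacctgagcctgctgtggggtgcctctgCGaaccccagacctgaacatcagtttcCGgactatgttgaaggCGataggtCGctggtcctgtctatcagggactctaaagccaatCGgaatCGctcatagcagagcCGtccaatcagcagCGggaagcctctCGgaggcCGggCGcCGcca
Zfp821: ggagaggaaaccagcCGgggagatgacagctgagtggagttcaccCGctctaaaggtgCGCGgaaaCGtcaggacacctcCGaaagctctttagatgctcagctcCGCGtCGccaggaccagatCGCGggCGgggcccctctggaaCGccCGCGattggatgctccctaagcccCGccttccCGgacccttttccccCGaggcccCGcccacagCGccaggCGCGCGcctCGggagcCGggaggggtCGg
Zfp827: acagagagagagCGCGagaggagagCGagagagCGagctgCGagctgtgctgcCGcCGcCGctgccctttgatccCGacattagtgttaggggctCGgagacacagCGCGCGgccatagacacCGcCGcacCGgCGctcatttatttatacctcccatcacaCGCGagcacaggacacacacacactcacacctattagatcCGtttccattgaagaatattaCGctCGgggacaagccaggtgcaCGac

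These stretches hold 4 CpG in Zfp983, 15 in Zfp961, 26 in Zfp821 and 23 in Zfp827. Over the 300-base windows the median was 7 CpG for all 32851 windows in the table, 9 for the 74 members, 8.5 for the 10 higher members with a window, 10 for the 33 within the rule and 28 for the 2 lower ones. Zfp961 and Zfp810, with 21 and 20 CpG in theirs, show that higher members were not all CpG-poor. High counts were not particular to the lower members. Zfp830 and Zfp839, both within the rule, had 24 CpG each, and the lower Zfp827 had 23. Of 3 motifs searched on both strands, TGACGTCA was in 1 of the members' windows, the core of the interferon-stimulated response element in 2 and CACGTG in 9. Each was in 0 of the 10 windows of higher members, and 1.79%, 3.44% and 7.15% of all windows hold them. DNA methylation and factor binding were not analysed here.

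Most genes of the machinery that KRAB proteins call on were within the rule, Setdb1 itself among them. Of 44 listed co-repressor and heterochromatin genes 43 were matched and 41 measured, 3 of them higher and 2 lower, where 6.28% and 6.66% of all measured genes were called, with a median log2 ratio of 0.00 against -0.09 for all measured genes. Trim24, a relative of TRIM28, went from 14.1 to 89.7 RPKM, and the histone deacetylase gene Hdac2 from 33.4 to 84.4 RPKM. Resf1, which encodes a partner of SETDB1, was the third, at 6.64 and 81.2 RPKM. Chd3, which encodes a remodelling ATPase of the NuRD complex, went from 64.7 to 14.8 RPKM. H3f3a, a gene for histone H3.3 with many processed copies, went from 4549 to 2177 RPKM. Atrx (12.1 to 24.6 RPKM, log2 ratio 0.99) and Atf7ip (12.2 to 24.0 RPKM, 0.95), named after their values were seen, fell just short of the rule. The lowest log2 ratio of those within it was -0.52, in Ehmt2 (138 to 96.1 RPKM).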

How the data were processed

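RNA of 2 libraries, 1 per genotype, was sequenced as 101 bp paired ends after ribosomal RNA depletion, per the labels' protocols. The authors deposited RPKM values for 93615 Ensembl transcripts, rounded to 3 decimals. The columns Wt and Del were taken for C/C and Δ/Δ, respectively. The submitters' processing notes name TopHat2 2.0.9, bedtools, mm9 and mm10; the build, annotation and counting rule behind the table remain not given in the sources used here. GENCODE M21 (GRCm38) gave symbols for 89571 transcripts (95.7%), positions and reading frames. Multiplying deposited RPKM by transcript length gave whole reads (within 0.1) for 96.7% of low values in C/C and 96.0% in Δ/Δ, which set the depths. Intervals are exact 95% Poisson intervals of the ratio, with 2 reads as 1 fragment.

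Fingers (12 residues between the cysteine and histidine pairs, 3 to 5 between the histidines) and a KRAB A box pattern were searched in the longest GENCODE reading frame. Clusters link 4 or more genes named Zfp with a number over gaps of at most 500 kb. Named members were all past the rule, the 12 highest and 12 lowest, the 6 most abundant, those within 0.15 of the rule and the 6 of largest change under the filter; others were added after their values were seen, to describe a cluster or class. Members, lists and alternatives were chosen with earlier results of these data known. Python 3.11.15, pandas 2.3.3 and scipy 1.17.1 were used, and the steps were tested on simulated data.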

Additional observations from a re-analysis of the deposited data

How the results depend on the processing

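With 1 library per genotype no library could be left out and no paired analysis was possible because each genotype has 1 sample. The count of 14 higher members became 8 with a pseudocount of 1 RPKM (where 5.09% of all measured genes were higher). It became 5 of the 23 members left by a filter of 5 RPKM (where 4.95% of all genes were). By read density over members with at least 20 reads it was 30 (where 11.4% of all genes were). Under a 4-fold rule it was 1 of the 54 measured members, near the 1.75% of all measured genes. The count of 3 lower members became 5 by read density (where 12% of all genes were lower). It became 0 under the 4-fold rule (where 1.86% of all measured genes were lower). The other alternatives gave 12 to 18 higher members, with 2.37% to 7.4% of all genes higher. The lower count was 2 to 4, with 2.4% to 8.2% of all genes lower, under all but those of read density and the 4-fold rule. Centring on the median of all measured genes gave 17 and 3, where 7.22% and 5.80% of all measured genes were called. The highest protein-coding transcript, an alternative chosen after seeing the data, gave 14 and 3 (5.39% and 4.79% of all such genes). The members' median of 0.28 was 0.43 with a common RPKM sum without the 20 most abundant transcripts, 0.42 for summed transcripts, 0.50 for the longest transcript, 0.16 without a filter and 0.60 by read density. Over gaps of 1000 kb, 1 lower member, Zfp831, lay in a cluster, and over 200 kb 5 higher members lay in clusters and 9 outside. Of 304 values of 38 named members under alternatives, 15 came to pass the rule and 10 no longer passed it. The 10 belong to Zfp935, Zfp945, Zfp951, Zfp959, Zfp971 and Zfp992. Left out of the 304 were the alternatives without a filter, with a filter of 5 RPKM, by read density and under the 4-fold rule. Among the 304, 0 called values changed sign, but a change of pseudocount cannot turn a sign. Nor can the choice of transcript where a member has 1 listed transcript. Fewer reads limit the members under the filter, of which 22 had at least 20 reads in total.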

Other observations

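Several zinc finger genes outside the number range lie in the members' clusters and passed the size rule. Gm13212, with 20 fingers and a KRAB box in the chromosome 4 cluster, went from 0.216 to 3.76 RPKM, a ratio of 17.4 (interval 11.6 to 28.7). Gm14325 on chromosome 2, near Zfp971, went from 2.46 to 8.03 RPKM. Zfp433 on chromosome 10 went from 1.33 to 4.83 RPKM and Zfp658 on chromosome 7 from 1.51 to 4.86 RPKM, although the members of their clusters were within the rule or under the filter. Zfp595 (a ratio of 2.44, at 3.9 RPKM in Δ/Δ) and Zfp429 (1.08 to 2.77 RPKM) flank Zfp953 on chromosome 13. All of these were named after their values were seen, and close copies make the values of Gm13212 and Gm14325 uncertain.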
